A study of Rattus norvegicus with 14 samples.

Results

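Glycerol enters cells through water and glycerol channels, is phosphorylated to glycerol 3-phosphate, and is exchanged with the glycolytic intermediate dihydroxyacetone phosphate by the glycerol 3-phosphate dehydrogenases. The 8 genes described here encode these steps and the PEP carboxykinases: the channels Aqp7 and Aqp3, glycerol kinase (Gk), the cytosolic dehydrogenases Gpd1 and Gpd1l, the mitochondrial dehydrogenase Gpd2, and Pck1 and Pck2. They were chosen by name from the glycerol pathway, and all 8 were found among the 16816 gene rows of the count table. RNA-seq was performed on PCCL3 cells, a rat thyroid follicular line, that had been stably transfected with a myc-tagged human PAX8-PPARG fusion protein (PPFP cells) or with the empty vector (EV cells). For 16 hours the cells of either line received pioglitazone (1 μM), which activates PPARG, or its DMSO vehicle, which gave the 4 groups EV, EV+Pio, PPFP and PPFP+Pio. Each group had 3 libraries, from 3 independent experiments, and all groups were kept in the same serum-containing medium with thyrotropin, insulin, transferrin and hydrocortisone. Each cell line is 1 stably transfected line, so a difference between PPFP and EV cells cannot be told apart from a difference between these lines that arose for another reason.

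Glycerol 3-phosphate is the backbone of triglycerides, and it also carries electrons from cytosolic NADH to the mitochondrial respiratory chain when Gpd1 and Gpd2 act in sequence, the glycerol phosphate shuttle. In adipocytes, Aqp7 lets out the glycerol that lipolysis frees, Gpd1 and the PEP carboxykinase Pck1 supply new glycerol 3-phosphate from sugars or from pyruvate, and Aqp7, Gk, Gpd1 and Pck1 are textbook targets of PPARG in adipose tissue. Thyroid follicular cells are not known for storing fat.

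The libraries held between 23724703 and 35240176 counts on genes. Levels are given as normalized CPM, counts scaled to library size with TMM factors, and they are compared between groups but not between genes, because transcript length was not used. Pparg, the gene whose human counterpart is carried by the fusion, was at 1.60 ± 0.347 CPM (SD, n = 3) in EV and 54.1 ± 6.82 CPM in PPFP cells, and reads from the transgene and from the rat gene were not separated. All 8 thyroid markers that were looked for were detected in every group, with summed levels between 9880 and 14173 CPM over the 12 libraries. Of 8 adipocyte markers, 7 were in the table, Lep and Retn had 0 counts in every library, and Fabp4 was at 0 in the EV and PPFP groups without pioglitazone, with 1 count in EV+Pio and 1 to 5 counts in the PPFP+Pio libraries. Their summed level was 9.19 to 13.9 CPM in EV cells with or without pioglitazone, 723 to 749 CPM in PPFP and 975 to 1006 CPM in PPFP+Pio libraries, most of it from Cfd (716 ± 12.9 CPM in PPFP and 924 ± 7.07 CPM in PPFP+Pio, n = 3 each). For pioglitazone in PPFP cells Plin1 rose 6.40-fold (adjusted p = 0.00041) and Cidec 2.76-fold (adjusted p = 0.0013), while Adipoq fell from 4.54 to 2.40 CPM (adjusted p = 0.024). The summed level of 5 leukocyte markers was 0.537 to 0.666 CPM in EV, 0.542 to 1.01 CPM in EV+Pio, 0.846 to 1.23 CPM in PPFP and 1.07 to 1.42 CPM in PPFP+Pio libraries, and of these Cd68, the 1 tested, was 2.27-fold higher in PPFP+Pio than in EV+Pio cells (adjusted p = 0.016). That of 5 fibroblast markers was 20.4 to 34.5 CPM over all libraries, and Pdgfra was 1.38-fold higher in the same comparison (adjusted p = 0.014). The part of these markers in the results below was not tested, and in bulk RNA fewer cells of a type and less RNA per cell cannot be told apart.

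RefSeq (GRCr8) promoter entries matched 6 of the 8 genes, Gpd1l under the symbol Gpd1l1, and the 250 bases before each start were searched on both strands for AGGTCA, the core of a nuclear receptor site, and for CGTCA, the core of a cAMP response element. Pck1 and Gk are shown because, of the 6, they were the ones with a match. Capitals mark AGGTCA (or TGACCT on the other strand) and CGTCA (or TGACG).
Pck1, chr3:182348322-182348571 (+): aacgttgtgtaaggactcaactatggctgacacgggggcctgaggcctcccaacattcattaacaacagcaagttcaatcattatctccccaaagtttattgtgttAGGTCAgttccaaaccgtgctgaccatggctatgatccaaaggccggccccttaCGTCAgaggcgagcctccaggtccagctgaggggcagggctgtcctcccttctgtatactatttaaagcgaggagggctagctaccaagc
Gk, chrX:54189732-54189981 (-): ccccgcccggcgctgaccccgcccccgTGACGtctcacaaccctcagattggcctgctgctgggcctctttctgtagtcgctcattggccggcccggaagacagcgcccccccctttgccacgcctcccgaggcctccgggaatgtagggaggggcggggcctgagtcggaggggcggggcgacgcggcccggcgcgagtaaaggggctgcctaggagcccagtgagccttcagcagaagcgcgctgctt
In the Pck1 promoter AGGTCA began 144 bases and CGTCA 90 bases before the start. In the Gk promoter TGACG began 223 bases before the start, and AGGTCA was not found. The marked letters of the motifs did not overlap. AGGTCA was in 14.1% and CGTCA in 18.2% of all 33469 promoters of the same length. DR1, a direct repeat of AGGTCA with 1 base between the copies (13 letters, the form bound by PPARG with RXR), overlaps AGGTCA and was searched on both strands with mismatches allowed: the best match had 3 mismatches in Pck1 and Pck2, 4 in Gk and 5 in Aqp3, Gpd1l and Gpd2, and 21.4% of all promoters held a match with at most 3. These letter matches describe the sequences and do not identify binding sites.

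PPFP cells cultured without pioglitazone were compared with EV cells first, which asks how the glycerol genes differ with the fusion protein in the absence of an added ligand. Gpd1 rose 5.13-fold, and Gpd1l and Gk rose 1.50-fold and 1.34-fold. Aqp7 went from 0 counts to a low level. Of the 6 members with counts in both lines, these 3 passed at an adjusted p of 0.05 in edgeR's quasi-likelihood test (adjusted over all genes by Benjamini-Hochberg) and all 3 were higher in PPFP cells, against 45.2% of all 10264 genes tested that passed in either direction and 22% that were higher. The same 3 of the 6 had PPFP libraries that did not overlap the EV libraries, as had 56.5% of all genes tested in either direction. Aqp7 entered the test only through its PPFP libraries, so its own call is not counted here, and of all genes that reached the filter on low counts in both groups 43.2% passed. The median log2 fold change of the 6 was 0.17, and that of all such genes was 0.0034. Pck1 had no count in either group and was not tested.

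With pioglitazone in both lines, the comparison of PPFP with EV cells gave the same genes. Gpd1 was 16.7-fold higher, Gk 1.82-fold and Gpd1l 1.56-fold, and Aqp7 was at least 124-fold higher. Again 3 of the 6 members with counts in both lines passed, all higher, against 52.7% of 10291 genes in either direction and 26.3% higher. Of these 6, the same 3 had groups that did not overlap, as had 62.9% of all genes tested. The share that passed was 50.6% of all genes that reached the filter in both groups, and the median log2 fold change was 0.54 for the 6 and 0.016 for all such genes. Aqp7 again entered the test only through the PPFP cells, and the few counts of Pck1, which was not tested, were also all in the PPFP+Pio libraries.

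The response to pioglitazone itself was measured within each line. In PPFP cells Aqp7 rose 23.1-fold, Gpd1 3.35-fold and Gk 1.40-fold, and these 3 of 7 tested genes passed, against 14.8% of all 10064 genes in either direction and 7.63% higher. Of the 7 tested, the same 3 had PPFP+Pio libraries that did not overlap the PPFP libraries, as for 34.4% of all genes tested, and the untested Pck1 (0 counts against 3 to 6) did not overlap either. Libraries of the same number deviated together within a line, although PPFP replicate 3 correlated more with another number (0.682) than with its own (0.593). The model was therefore also fitted with the number as a blocking factor (the block). With the block 6 of the 7 passed, all higher, against 51.6% of all genes. The 3 genes added by the block were Aqp3, Gpd2 and Pck2. In EV cells 0 of the 6 tested genes passed by edgeR's quasi-likelihood test, against 0% of 10146 genes in either direction; 0 of the 6 had an unadjusted p under 0.05 (16 of all genes did), and 0 passed by DESeq2, by edgeR's exact test or with the block, where 0.00986% of all genes passed. None of these 6 had groups without overlap in EV cells, against 1.48% of all genes. The comparisons share libraries: the PPFP libraries enter the first and the third, and the PPFP+Pio libraries the second and the third.

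**Figure D1:**
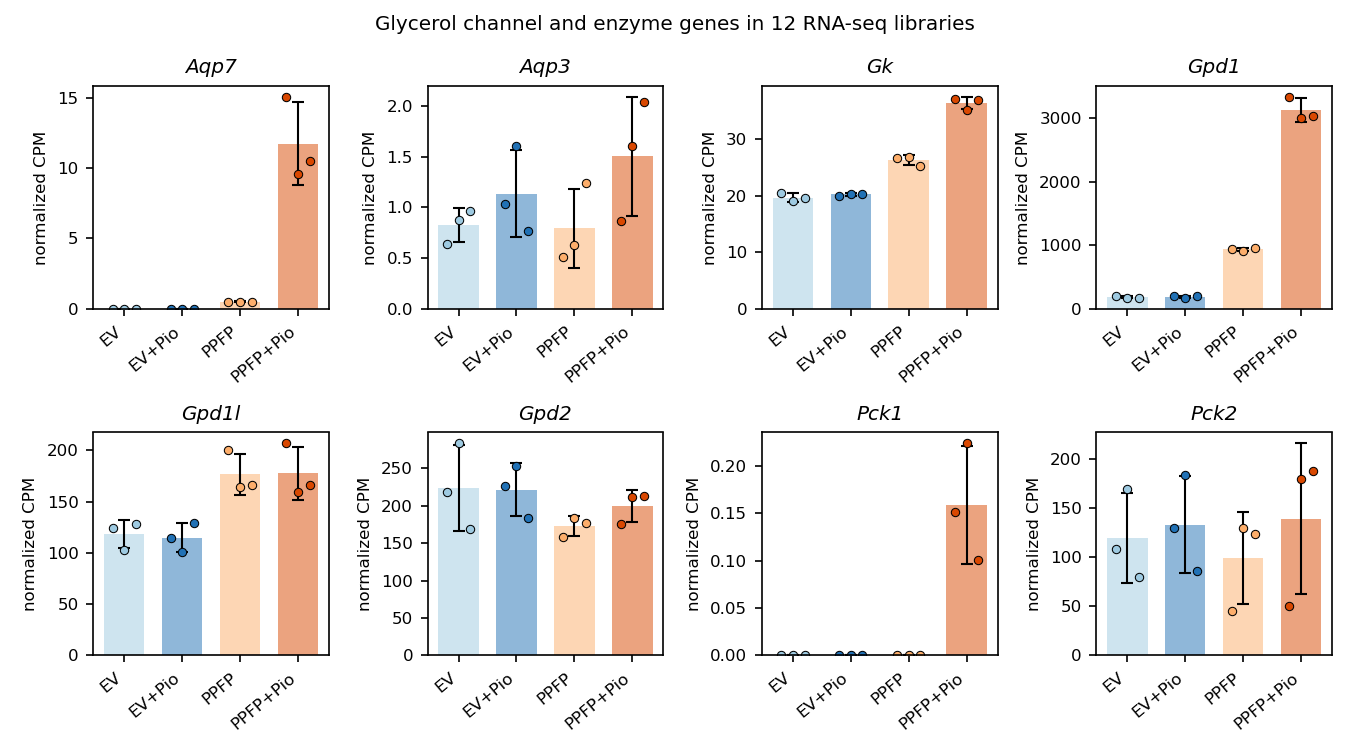
Normalized CPM of the 8 glycerol genes in each of 12 libraries (points, replicates 1 to 3 from left to right), with group mean (bar) and SD (error bar, n = 3); each panel has its own linear axis from 0. Gpd1 and Aqp7 step up from PPFP to PPFP+Pio, Gk and Gpd1l are higher in both PPFP groups, and Gpd2 and Pck2 overlap between all groups.

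**Figure D2:**
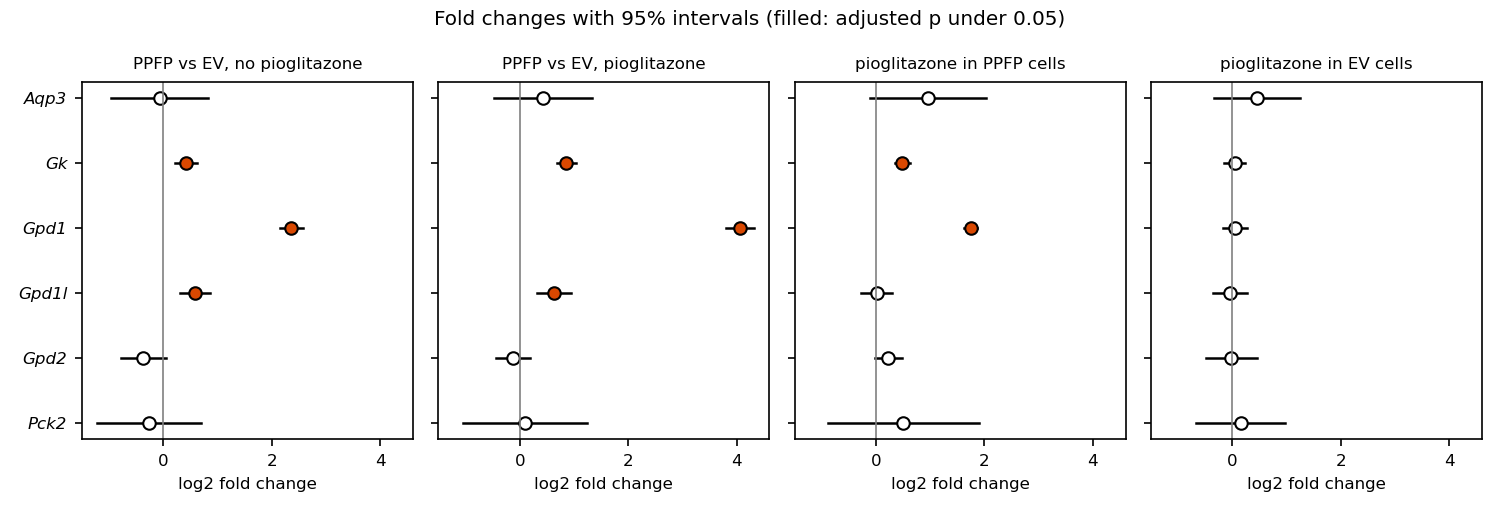
Log2 fold change (x axis) with 95% interval (line) for the 6 members tested in every pairwise comparison, by edgeR's quasi-likelihood test; filled points have an adjusted p under 0.05. Filled points are Gk, Gpd1 and Gpd1l in both comparisons of PPFP with EV cells and Gk and Gpd1 for pioglitazone in PPFP cells, and no point is filled for pioglitazone in EV cells.

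Aqp7, the channel through which adipocytes release glycerol, had 0 counts in all 6 libraries of EV cells. In PPFP cells without pioglitazone it had 13, 14 and 12 counts, or 0.478, 0.522 and 0.514 CPM. With pioglitazone these became 398, 256 and 315 counts, or 15.1, 9.55 and 10.5 CPM. The 3 groups that differ in level, EV cells, PPFP and PPFP+Pio, were therefore separate in every library. Because all EV libraries were at 0, the difference from EV cells is a lower bound, computed against 3 counts per library: Aqp7 was at least 5.02-fold higher in PPFP than in EV cells and at least 124-fold higher with pioglitazone. No adjusted p is given for these differences, because Aqp7 passed the filter on low counts only through the PPFP cells. Within PPFP cells pioglitazone raised Aqp7 by 4.53 on the log2 scale (SE 0.237, adjusted p = 0.00036). Within numbered pairs of libraries the log2 change was 4.98, 4.19 and 4.35, so that each of the 3 experiments showed it. No test of the difference in response between the lines was made for Aqp7, as it had no count in EV cells. On the rat genome Aqp7 lies next to Aqp3, with Nfx1 on its other side. Nfx1 did not pass for pioglitazone in PPFP cells (log2 fold change 0.21, SE 0.095, adjusted p = 0.2).

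Aqp3, an aquaglyceroporin of epithelia, was detected at a low level in all groups, with 14 to 61 counts per library. The levels were 0.642, 0.872 and 0.966 CPM in EV, and 1.03, 1.61 and 0.768 CPM in EV+Pio. They were 0.515, 0.634 and 1.24 CPM in PPFP, and 0.871, 1.60 and 2.04 CPM in PPFP+Pio. All 4 groups overlapped. Without the block Aqp3 passed in no comparison, and its log2 fold change for pioglitazone in PPFP cells was 0.95 (SE 0.444, adjusted p = 0.22). With the block it was 0.93 (SE 0.229, adjusted p = 0.0015), and Aqp3 was higher with pioglitazone in 3 of 3 pairs of PPFP libraries, by 0.71 to 1.34 on the log2 scale. In EV cells 2 of 3 pairs were higher, and the changes ran from -0.33 to 0.88. The test of the difference in response between the lines did not pass for Aqp3 (log2 0.48, SE 0.578, 95% interval -0.79 to 1.75, adjusted p = 0.85).

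Gk, the enzyme that phosphorylates glycerol, had small spreads, with a coefficient of variation between 1.04% and 3.80% in the 4 groups. EV libraries were at 20.5, 19.0 and 19.6 CPM, and EV+Pio libraries at 20.0, 20.4 and 20.4 CPM. PPFP libraries were at 26.8, 26.8 and 25.3 CPM and PPFP+Pio libraries at 37.2, 35.2 and 37.0 CPM. The lowest PPFP library was above the highest EV library, and the lowest PPFP+Pio library above the highest PPFP library, whereas both EV groups overlapped. Gk was higher in PPFP than in EV cells by 0.42 (SE 0.0874, adjusted p = 0.0062) without and by 0.86 (SE 0.0755, adjusted p = 1e-04) with pioglitazone, on the log2 scale. Pioglitazone changed it by 0.48 in PPFP cells (SE 0.0579, adjusted p = 0.0037) and by 0.04 in EV cells (SE 0.0804, adjusted p = 1). The response was 0.43 larger in PPFP than in EV cells (SE 0.0914, adjusted p = 0.033; adjusted p = 5e-04 with the block). That call is close to the threshold: of the 12 fits that left out 1 library, 9 lost it, with adjusted p between 0.057 and 0.11, and it held without PPFP library 1, EV library 2 or EV+Pio library 2. The log2 difference itself was 0.40 to 0.46 over these 12 fits. The testis glycerol kinase Gk2 had 1 count in all 12 libraries together.

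Gpd1 reduces dihydroxyacetone phosphate to glycerol 3-phosphate in the cytosol, and its difference between groups was the largest of the members other than Aqp7. EV libraries were at 199, 173 and 178 CPM, and EV+Pio libraries at 196, 173 and 197 CPM. PPFP libraries were at 949, 914 and 955 CPM and PPFP+Pio libraries at 3341, 3001 and 3031 CPM. The 2 EV groups overlapped, and PPFP and PPFP+Pio were each separate from every other group. Gpd1 was higher in PPFP than in EV cells by 2.36 (SE 0.0888, adjusted p = 3.8e-06) without and by 4.06 (SE 0.112, adjusted p = 1.3e-06) with pioglitazone. In PPFP cells pioglitazone raised it by 1.74 (SE 0.05, adjusted p = 3.3e-05), with 1.67 to 1.82 in the numbered pairs. In EV cells the log2 change was 0.04 (95% interval -0.18 to 0.27, adjusted p = 1), and the response differed between the lines by 1.69 (SE 0.117, adjusted p = 5.5e-05). Of the 6 members with such a test, Gk and Gpd1 passed, both with the larger response in PPFP cells, against 2.66% of 10432 genes in either direction and 1.4% in that one. Gpd1 alone of the 6 also differed by more than 2-fold, as did 0.93% of all genes. With the block 4 of the 6 passed, against 34.5% of all genes. Smarcd1, which lies next to Gpd1, did not pass for pioglitazone in PPFP cells (log2 fold change 0.01, adjusted p = 0.95), and it was lower in PPFP+Pio than in EV+Pio cells (-0.20, adjusted p = 0.036).

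Gpd1l, the second cytosolic enzyme, which is named for its likeness to Gpd1, passed between the cell lines and not for pioglitazone. It was at 124, 102 and 128 CPM in EV and at 115, 101 and 129 CPM in EV+Pio. In PPFP it was at 200, 164 and 167 CPM, and in PPFP+Pio at 207, 159 and 166 CPM. Each PPFP library lay above each EV library, while the groups with and without pioglitazone overlapped in both lines. Gpd1l was higher in PPFP than in EV cells by 0.58 (SE 0.12, adjusted p = 0.0058) without and by 0.64 (SE 0.134, adjusted p = 0.0058) with pioglitazone. For pioglitazone in PPFP cells its log2 fold change was 0.01 with a 95% interval of -0.27 to 0.30 (adjusted p = 0.96, and 0.8 with the block). In the numbered pairs of PPFP libraries it moved by -0.04 to 0.05.

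Gpd2, which oxidizes glycerol 3-phosphate at the inner mitochondrial membrane, passed in no comparison without the block. It was at 218, 283 and 169 CPM in EV and at 226, 253 and 183 CPM in EV+Pio. The PPFP libraries were at 158, 183 and 177 CPM, and the PPFP+Pio libraries at 175, 212 and 212 CPM. All groups overlapped, and EV library 2 was the highest of all 12. Its log2 fold change in PPFP against EV cells was -0.37 (95% interval -0.78 to 0.04, adjusted p = 0.13), and leaving out 1 library gave -0.54 (without EV library 3, adjusted p = 0.014) to -0.16 (without EV library 2, adjusted p = 0.35). For pioglitazone in PPFP cells it was 0.22 (SE 0.104, adjusted p = 0.22), and with the block 0.22 (SE 0.0368, adjusted p = 2.8e-05), with 3 of 3 pairs higher by 0.15 to 0.26. In EV cells the pairs moved by -0.16 to 0.11, and the difference between the lines was 0.22 without the block (adjusted p = 0.83) and 0.21 with it (SE 0.0647, adjusted p = 0.025).

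The 2 dehydrogenases of the shuttle were also set side by side within each library. The ratio of Gpd1 to Gpd2 read counts, which is not corrected for length and is of use only between groups, was 0.609 to 1.05 in EV and 0.682 to 1.07 in EV+Pio libraries. It was 4.98 to 6.02 in PPFP and 14.2 to 19.1 in PPFP+Pio libraries. The ratio of Gpd1 to Gpd1l likewise went from 1.38 to 1.68 in EV and 1.53 to 1.71 in EV+Pio to 4.75 to 5.73 in PPFP and 16.1 to 18.9 in PPFP+Pio. For both ratios the EV and EV+Pio libraries overlapped, the PPFP libraries lay above them, and the PPFP+Pio libraries above those.

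Pck1, the cytosolic PEP carboxykinase of gluconeogenesis and glyceroneogenesis, had 0 counts in 9 libraries and 4, 6 and 3 counts in the PPFP+Pio libraries. These 13 counts have an exact Poisson 95% interval of 6.92 to 22.2, which covers counting error only. Pck1 did not pass the filter on low counts and was not tested. No fold is given, as that interval reaches below the limit of 3 counts per library used for such bounds. Pck1, whose promoter is printed above, was thus near the limit of detection at this depth.

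Pck2, the mitochondrial PEP carboxykinase, was detected in all libraries and varied widely among replicates, with a coefficient of variation between 37.1% and 55.1% in the 4 groups. It was at 109, 170 and 80.3 CPM in EV and at 129, 184 and 85.6 CPM in EV+Pio. It was at 45.2, 130 and 123 CPM in PPFP and at 50.7, 180 and 187 CPM in PPFP+Pio. All groups overlapped, library 2 was the highest in both EV groups, and library 1 was the lowest in both PPFP groups. For pioglitazone in PPFP cells the log2 fold change was 0.51 (SE 0.58, adjusted p = 0.63), with 0.14 to 0.89 when 1 library was left out, and with the block 0.45 (SE 0.0547, adjusted p = 2.2e-07), with 3 of 3 pairs higher by 0.17 to 0.61. The changes in these pairs were 0.17, 0.47 and 0.61, a wider spread than an SE of 0.0547 stands for. That SE draws on the spread of all genes, of which 51.6% passed with the block. In EV cells the log2 fold change was 0.15 without (adjusted p = 1) and 0.15 with the block (SE 0.0406, adjusted p = 0.65), and 3 of 3 pairs were higher, by 0.09 to 0.25. The difference in response was 0.34 (adjusted p = 0.93), and with the block 0.29 (SE 0.084, adjusted p = 0.018). Between the lines Pck2 passed neither without (log2 fold change -0.27, adjusted p = 0.63) nor with pioglitazone (0.09, adjusted p = 0.89).

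**Figure D3:**
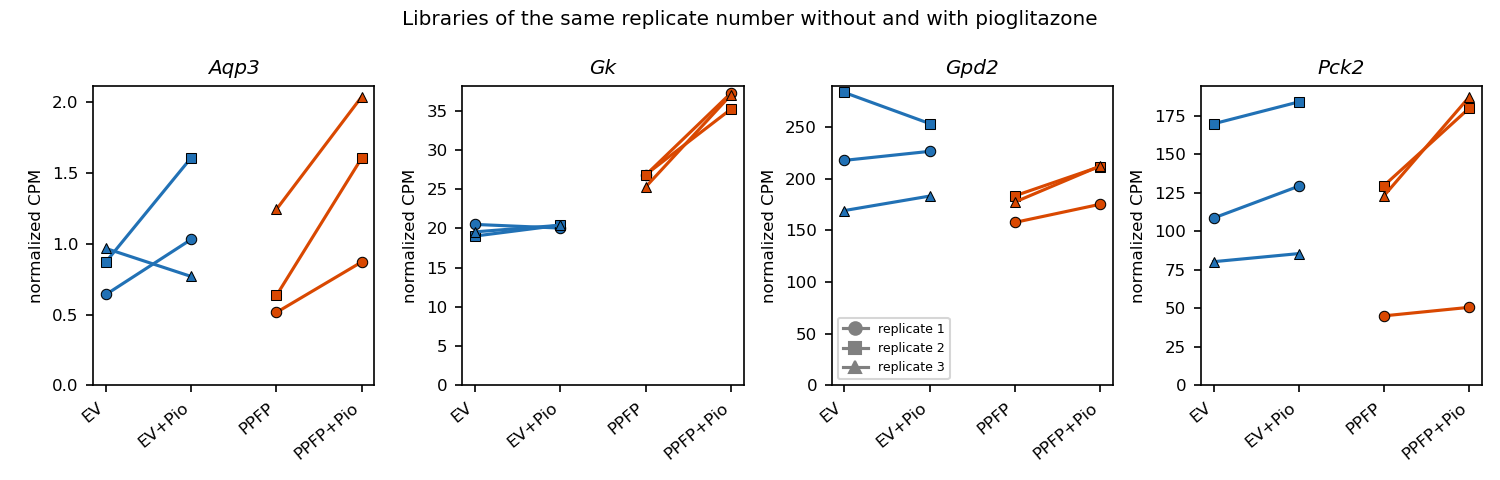
Normalized CPM of Aqp3, Gk, Gpd2 and Pck2 in libraries without and with pioglitazone, each line joining 2 libraries of the same replicate number (circles, squares and triangles for replicates 1 to 3; blue for EV and orange for PPFP cells). In PPFP cells all 3 lines rise in each panel, while in EV cells all 3 rise only for Pck2.

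The genes around these 8 were taken from 6 lists: other aquaporins, lipolysis, side reactions of glycerol, assembly of glycerolipids, partners of gluconeogenesis and glyceroneogenesis, and other NADH shuttles. Of their members, 58 were in the table. A list gene was called when its adjusted p was under 0.05 and it differed by more than 2-fold. The calls between the lines are counted over genes that reached the filter in both groups, since a gene that reached it in 1 group alone was admitted through the group where it is high. In PPFP against EV cells without pioglitazone 6 of 43 list genes were called higher and 1 lower (16.3%), against 10.2% of all such genes (14.6% of all genes tested), and the median log2 fold change of the 43 was 0.036. With pioglitazone 9 of 43 were called higher and 2 lower (25.6%), against 14.8% of all such genes (19.7% of all genes tested), with a median of 0.28. Left out of these counts were the calls of Aqp9 in both comparisons and of Aqp8 and Fbp2 with pioglitazone. For pioglitazone in PPFP cells 4 of 46 were called higher and 0 lower (8.7%), against 2.42% of all genes, with a median of 0.07, and in EV cells 0 of 44 were called.

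Among the other aquaporins that reached the filter in both groups, 3 of 5 were called higher without pioglitazone, against 10.2% of all such genes called in either direction. With pioglitazone 2 of 5 were called higher and 1 lower, against 14.8% of all such genes. Aqp9, a glycerol channel of liver, was at 0.212 ± 0.0686 CPM in EV and 6.28 ± 1.14 CPM in PPFP cells (n = 3; log2 fold change 4.86, SE 0.295). It had 4 to 8 counts in the EV libraries and entered that test only through the PPFP libraries. With pioglitazone Aqp9 was at 4.50 ± 0.459 CPM in PPFP cells, and that change did not pass (log2 fold change -0.47, adjusted p = 0.14; adjusted p = 0.001 with the block), whereas Aqp7 rose. Mip, the lens aquaporin, rose from 1.73 ± 0.380 to 5.65 ± 1.38 CPM (adjusted p = 0.0013). Aqp8 had 1 count in each EV library, 0 in each EV+Pio library and 22 to 29 in the PPFP+Pio libraries, at least 9.95-fold higher with pioglitazone, and it entered that test only through the PPFP+Pio libraries. Aqp5, a water channel, was lower, at 14.5 ± 1.54 CPM in PPFP+Pio against 32.8 ± 3.88 CPM in EV+Pio (adjusted p = 0.00028).

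Of 5 lipolysis genes tested, 3 were called higher in PPFP than in EV cells with pioglitazone (Pnpla2, Lipe and Mgll). Of all genes that reached the filter in both groups, 14.8% were called there in either direction. For pioglitazone in PPFP cells 1 of the 5, Mgll, was called, against 2.42% of all genes. At any fold 3 of the 5 passed there, against 14.8% of all genes. Mgll, monoglyceride lipase, went from 104 ± 2.58 CPM in PPFP to 263 ± 18.0 CPM in PPFP+Pio (n = 3; log2 fold change 1.35, adjusted p = 0.00036). Lipe, hormone-sensitive lipase, was at 16.0 ± 2.60 CPM in EV+Pio and 53.5 ± 5.43 CPM in PPFP+Pio (adjusted p = 9.5e-05). In the assembly of glycerolipids, Dgat2, which adds the last acyl chain of triglycerides, rose from 47.8 ± 7.75 CPM in EV to 190 ± 12.2 CPM in PPFP cells (adjusted p = 2.9e-05). Agpat9, a glycerol 3-phosphate acyltransferase now named Gpat3, was at 21.7 ± 0.968 CPM in EV, 21.1 ± 1.43 CPM in PPFP and 48.4 ± 7.50 CPM in PPFP+Pio, and pioglitazone raised it in PPFP cells (adjusted p = 0.0027). Agpat3, an acyltransferase for lysophosphatidic acid, rose with pioglitazone in PPFP cells, from 135 ± 3.33 to 270.1 ± 7.98 CPM (log2 fold change 1.01, adjusted p = 0.00036). Of the 13 assembly genes tested, Dgat2 was the 1 called between PPFP and EV cells without pioglitazone (7.69%). Of all genes that reached the filter in both groups 10.2% were called. The median log2 fold change of the 13 was -0.09. Below 2-fold, Gpam, the mitochondrial glycerol 3-phosphate acyltransferase, was lower in PPFP than in EV cells (77.0 ± 7.82 against 116 ± 6.22 CPM, adjusted p = 0.0018), and so was Agpat5 (31.6 ± 3.26 against 57.6 ± 5.30 CPM, adjusted p = 7e-04). With pioglitazone 5 of the 13 passed higher and 4 lower at any fold (69.2%), against 50.6% of all genes that reached the filter in both groups. Agpat4 fell with pioglitazone in PPFP cells, from 139 ± 4.85 to 79.8 ± 8.94 CPM (adjusted p = 0.0039). Gpam, Agpat5 and Agpat4 were chosen after their values were seen.

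Of the partners of glyceroneogenesis, Pc, pyruvate carboxylase, rose from 110 ± 2.35 CPM in EV to 396 ± 7.62 CPM in PPFP cells (adjusted p = 3.9e-06). Pdk4, a kinase that switches off pyruvate dehydrogenase, was at 10.3 ± 1.44 CPM in EV, 36.2 ± 2.51 CPM in PPFP and 125 ± 6.54 CPM in PPFP+Pio, and pioglitazone raised it by 1.80 on the log2 scale in PPFP cells (SE 0.08, adjusted p = 0.0002). Of the other NADH shuttles, 1 of 7 tested was called, Got1, the cytosolic aspartate aminotransferase of the malate-aspartate shuttle. That is 14.3% in either comparison of PPFP with EV cells. Of all genes that reached the filter in both groups, 10.2% were called without and 14.8% with pioglitazone. Got1 was lower, at 5.94 ± 1.06 CPM in PPFP against 21.9 ± 1.50 CPM in EV cells (log2 fold change -1.88, adjusted p = 7.9e-05). No gene of the side reactions of glycerol was called in any comparison.

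**Figure D4:**
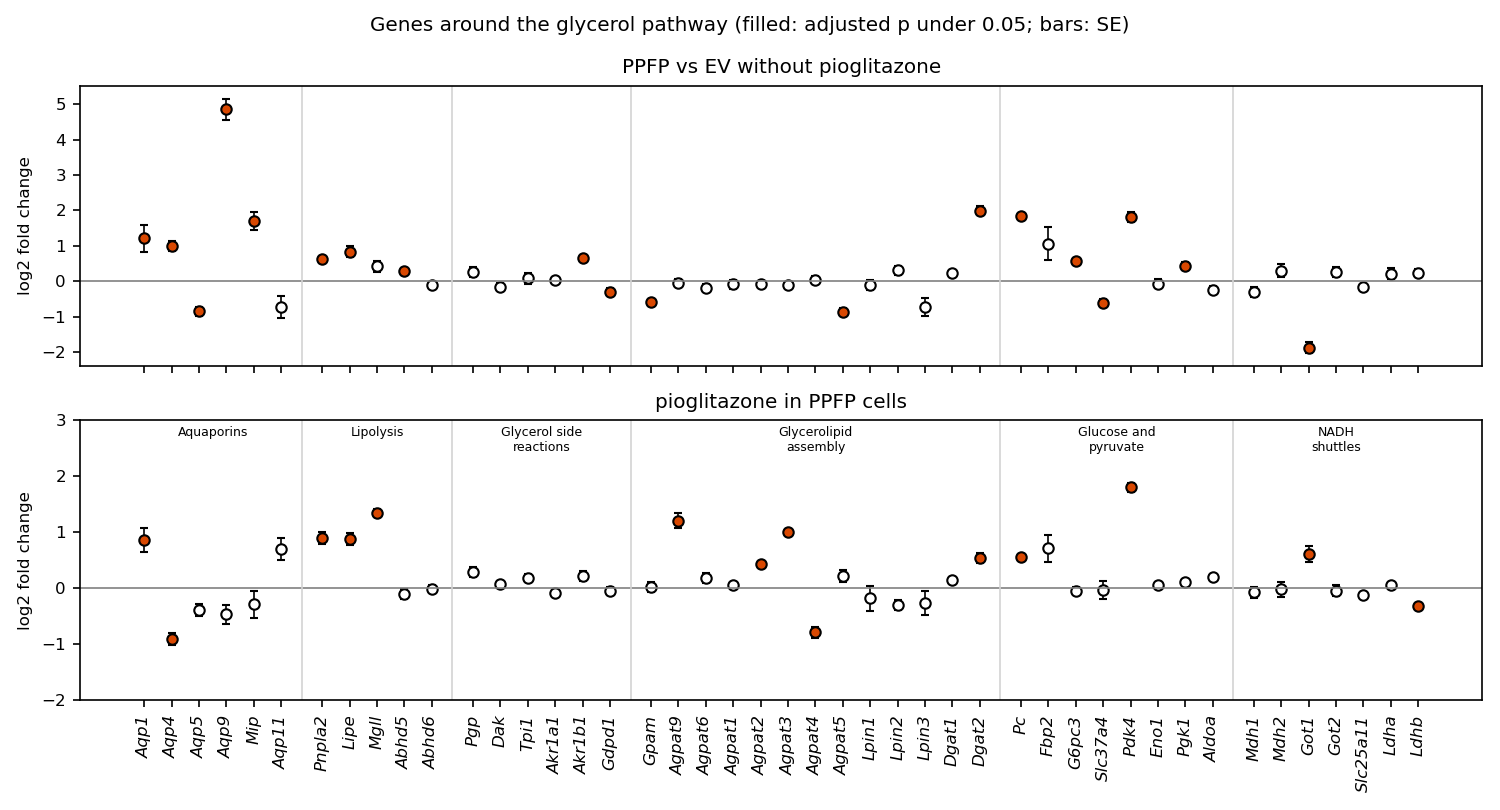
Log2 fold change (points) and SE (bars) of 45 list genes tested both in PPFP against EV cells without pioglitazone and for pioglitazone in PPFP cells, grouped by list; filled points have an adjusted p under 0.05 at any fold. Aqp9 is the highest point of the upper panel at 4.86 and Got1 the lowest at -1.88, and Pdk4 is the highest of the lower panel at 1.80. Aqp9 entered the test of the upper panel only through the PPFP libraries, so its filled point is not counted as a call.

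To find the genes whose pattern was most like that of a member, the root mean square difference of centred log2 CPM over the 12 libraries was computed for 9638 genes that averaged 1 CPM or more. In the case of Gpd1 the closest were Sgk2 (0.208), Plin2 (0.271), which coats lipid droplets, and Zfp385d (0.279), while the SD of Gpd1 itself on that scale was 1.72. Plin2 was at 41.7 ± 2.81 CPM in EV, 41.8 ± 2.65 in EV+Pio, 285 ± 3.04 in PPFP and 1046 ± 16.5 in PPFP+Pio (n = 3 each). For Aqp7 the closest were Slc47a1 (0.672), Ptp4a3 (0.895) and Susd4 (0.95), against an SD of 3.03. Slc47a1 likewise had no count in EV cells, and was at 1.24 ± 0.139 CPM in PPFP and 8.32 ± 1.67 CPM in PPFP+Pio.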

How the data were processed

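RNA-seq gene counts of 12 libraries were analysed. The authors aligned paired-end reads to rn4 with TopHat2 2.0.11, counted them per gene with HTSeq 0.6.1p1 in intersection-strict mode, and deposited these raw counts, unnormalized and unpooled; whether strand was used is not given in the sources used here. The ChIP-seq peaks are given as rn4 positions without gene names and were not used here. The 8 genes, the lists and the tests were chosen with earlier results of these data known.

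The tests used edgeR 4.0.16 under R 4.3.3, with filterByExpr, TMM scaling and the quasi-likelihood test on the 6 libraries compared, with Benjamini-Hochberg adjustment over all genes tested. The difference in response was the interaction in 1 fit of 12 libraries, without 50 genes that had no count in 1 of the cell lines. Standard errors were derived from each log2 fold change and its F value. Groups with at most 3 counts in every library gave lower bounds. Between the lines, counts were taken over genes that reached the filter in all 3 libraries of both groups, a choice made after seeing the data. The procedure was also run on simulated counts, with changes set in PPFP+Pio alone and no replicate effect. The block and the comparisons between the lines were not tried there. All 8 members are named; of the list genes, at most 2 per list, comparison and direction, those called with the largest fold change; and for called members the 3 genes of most alike pattern.

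Libraries of the same number were checked for pairing from their deviations from the group means. Within PPFP cells the correlations were 0.852, 0.629 and 0.593 and within EV cells 0.655, 0.837 and 0.878, so, with every value over 0.1, the numbers were taken to pair libraries within a line. The highest correlation with a library of another number was -0.641, 0.525 and 0.682 in PPFP cells, and that of replicate 3 is above its own. Alternatives were edgeR's exact test, DESeq2 1.42.0, RLE factors, library size alone, 2 other filters, all 12 libraries, the replicate block and each library left out.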

Additional observations from a re-analysis of the deposited data

Results flagged for a closer look

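The response to pioglitazone differed between the cell lines by a test of the difference itself for 2 of the 6 members tested (edgeR's quasi-likelihood test). For Gpd1 the log2 response was 1.69 larger in PPFP than in EV cells (SE 0.117, adjusted p = 5.5e-05), with all 3 PPFP+Pio libraries above all PPFP libraries. For Gk it was 0.43 larger (SE 0.0914, adjusted p = 0.033), and over 21 alternatives its adjusted p ranged from 5e-04 to 0.48, with the call lost in 14 and kept in 7.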

How the results depend on the processing

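The alternative fits gave 583 values over 33 member and comparison results, with several members read from each fit. Of these values 516 kept the direction and the side of the threshold, 20 lost and 10 gained the call, and 37 changed sign, all 37 of results that did not pass. The number of members called (adjusted p under 0.05, more than 2-fold), Gpd1 and Aqp7, fell from 2 to 1 in both comparisons of PPFP with EV cells when at least 10 counts were required in every library, a filter that removes Aqp7, and with no filter it was 3 with pioglitazone, where Pck1 was added. Aqp7 and Pck1 had no count in EV cells, so their calls between the lines are not counted as results. The number of members called fell to 1 for pioglitazone in PPFP cells without replicate 2 in every group, where Aqp7 had an adjusted p of 0.051. The log2 fold change of Aqp7 was 4.26 to 4.67 over the fits without a replicate number. Leaving out 1 library gave 2 to 2 members called in these 3 comparisons, 0 to 0 in EV cells and 1 to 1 for the difference in response. The settings that left out a replicate number in every group were chosen after seeing the data.

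With the replicate block the members passing at any fold went from 3 to 6 for pioglitazone in PPFP cells and from 2 to 4 for the difference in response, and the block changed no other member's call. Over the alternatives the genes of all that passed ranged from 6 to 5198 (main 1486) for pioglitazone in PPFP cells and from 10 to 3596 (main 278) for the difference in response, with the highest counts from the block, and the list genes called for pioglitazone in PPFP cells from 0 to 5 (main 4). Between the lines numbers 1 and 3 correlated negatively (-0.268 and -0.398 without pioglitazone), so the numbers were not taken as pairs there. Library size alone moved the median of all genes by -0.14 in the comparison with pioglitazone. The sign of Pck2 between the lines with pioglitazone changed with library size alone (-0.039) and the block (-0.061), and that of Gpd1l for pioglitazone in PPFP cells with library size alone (-0.034).

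Without a replicate number in every group, the log2 fold change without pioglitazone in PPFP against EV cells became 0.0116 and 0.11 for Aqp3 and 0.0141 for Pck2, and with pioglitazone -0.076 for Aqp3 and -0.44 for Pck2. For pioglitazone Gpd1l became -0.0274 in PPFP cells, Gpd2 0.0832 and Gpd1 -0.00889 in EV cells, and the difference in response of Gpd1l -0.0143. In those fits Gk lost its call between the lines without pioglitazone (0.38 and 0.44, adjusted p = 0.065 and 0.054) and for pioglitazone in PPFP cells (0.50 and 0.44, adjusted p = 0.12 and 0.18), and Gpd1l lost its call with pioglitazone (0.50, adjusted p = 0.058). Without replicate 1 in every group, 6 members and 4828 of all genes passed for pioglitazone in PPFP cells. Leaving out 1 library gave ranges in PPFP against EV cells of -0.51 to 0.19 for Aqp3 and -0.49 to 0.11 for Pck2, and with pioglitazone -0.21 to 0.50 for Pck2. For pioglitazone in PPFP cells Gpd1l ranged from -0.11 to 0.0946. In EV cells Gpd1 ranged from -0.0050 to 0.11, Gpd1l from -0.15 to 0.0447, Gpd2 from -0.17 to 0.18 and Pck2 from -0.15 to 0.48. The difference in response ranged from -0.0779 to 0.15 for Gpd1l and -0.0125 to 0.73 for Pck2. The causes were not tested. The alternatives planned for peaks near the members were not run. Depth limits Aqp3 and Pck1, at 14 to 61 and 0 to 6 counts per library.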

Other observations

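The following genes were singled out after their values were seen. The genes with the pattern closest to Pck2 over the 12 libraries were Gtpbp2 (root mean square log2 difference 0.171), RGD1566380 (0.185) and Slc6a9 (0.197), against an SD of 0.671 for Pck2. Slc6a9, a glycine transporter, was at 206 ± 93.2 CPM in EV and 153 ± 54.5 CPM in PPFP cells (n = 3), so it varied among replicates as Pck2 did. The closest to Aqp3 were Eif4ebp1 (0.305), Nars (0.329), an asparaginyl-tRNA synthetase, and Smox (0.346). The closest to Gpd2 was Hk2 (0.0547), a hexokinase, at 181 ± 36.9 CPM in EV and 144 ± 9.17 CPM in PPFP cells. The closest to Gk was Gnb1 (0.0604) and the closest to Gpd1l was Ube2l3 (0.0425). These likenesses are descriptions over libraries that share groups, and no test was made of them. Zbp1, which lies next to Pck1, fell with pioglitazone in PPFP cells (log2 fold change -1.98, SE 0.248, adjusted p = 0.0041), where Pck1 had its 13 counts.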
